A study of Mus musculus with 9 samples.

Results

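The transcripts described here are those of Myc and of 9 genes whose proteins pair with MAX or with its relative MLX, so 10 genes of the 43629 Ensembl genes counted. They were chosen by symbol in the GENCODE M21 annotation (Myc, Max, Mxd1, Mxd3, Mxd4, Mxi1, Mnt, Mga, Mlx and Mlxip), and all 10 were among the 11002 genes with enough counts to test. Expression was measured in the Eµ-Myc lymphoma clone 4242, a mouse B-cell lymphoma line treated in biological triplicate for 2 h. The groups were JQ1 at 1 µM, RG6146 at 2.5 µM and the solvent DMSO, with 3 libraries each. Both compounds inhibit the BET bromodomain proteins, readers of acetylated histones. All 3 groups carry the same Myc transgene, whose driver is the enhancer of the immunoglobulin heavy chain in B-lineage cells, and all come from 1 clone, so p-values describe the spread between cultures of that clone. Reads from the transgene and from the chromosomal Myc gene were not separated. The libraries are 3′ tag libraries with about 1 read per transcript, and they held 3410161 to 5031717 gene counts each. A single gene, Gm42418, made up 9.95% to 14.6% of these counts and was kept in the library sizes.

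MYC is a transcription factor that binds DNA as a heterodimer with MAX, at the E-box hexamer and its variants, and recruits acetyltransferase complexes. MXD1, MXD3, MXD4, MXI1, MNT and MGA compete for MAX. The MXD proteins, MXI1 and MNT recruit the SIN3 histone deacetylase corepressor, while MGA is a subunit of a Polycomb complex. MLX is the partner of MLXIP, also called MondoA, which responds to glucose, and it can also pair with MXD1, MXD4 and MNT. BET inhibitors are widely known for lowering MYC transcripts in blood cancers.

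Because the network reads E-boxes, the RefSeq promoters of its own genes (build GRCm38.p6, 250 bases before to 50 after the annotated start, gene strand) were searched for CACGTG on both strands. An entry was found for 9 of the 10 members, all but Myc. CACGTG stood in the promoters of Max, Mxd4, Mnt and Mlx, against 7.15% of the 32851 promoters in the table. The first base of the hexamer was 123 bases before the start in Mnt, 40 before it in Mlx, 219 before it in Mxd4 and 3 before it in Max, where it spans the start. These 4 are shown with the hexamer in capitals.
Mnt (chr11:74830674-74830973, plus strand): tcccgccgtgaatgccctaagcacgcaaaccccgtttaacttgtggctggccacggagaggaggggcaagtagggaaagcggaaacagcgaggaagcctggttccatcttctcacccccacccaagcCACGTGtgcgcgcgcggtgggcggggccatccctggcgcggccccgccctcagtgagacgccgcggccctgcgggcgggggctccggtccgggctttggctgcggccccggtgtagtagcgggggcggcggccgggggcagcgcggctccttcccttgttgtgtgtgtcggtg
Max (chr12:76962199-76962498, minus strand): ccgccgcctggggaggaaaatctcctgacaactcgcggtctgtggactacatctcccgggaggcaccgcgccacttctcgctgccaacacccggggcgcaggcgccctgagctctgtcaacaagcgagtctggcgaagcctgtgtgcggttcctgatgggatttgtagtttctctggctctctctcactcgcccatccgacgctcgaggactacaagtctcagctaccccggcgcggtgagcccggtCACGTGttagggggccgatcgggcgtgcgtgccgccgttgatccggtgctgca
Mlx (chr11:101087040-101087339, plus strand): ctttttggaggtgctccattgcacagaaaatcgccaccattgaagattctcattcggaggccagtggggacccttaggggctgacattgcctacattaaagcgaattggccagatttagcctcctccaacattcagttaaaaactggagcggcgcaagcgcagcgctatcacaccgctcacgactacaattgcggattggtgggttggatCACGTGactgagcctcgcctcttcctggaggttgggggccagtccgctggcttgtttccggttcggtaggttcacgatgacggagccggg
Mxd4 (chr5:34187661-34187960, minus strand): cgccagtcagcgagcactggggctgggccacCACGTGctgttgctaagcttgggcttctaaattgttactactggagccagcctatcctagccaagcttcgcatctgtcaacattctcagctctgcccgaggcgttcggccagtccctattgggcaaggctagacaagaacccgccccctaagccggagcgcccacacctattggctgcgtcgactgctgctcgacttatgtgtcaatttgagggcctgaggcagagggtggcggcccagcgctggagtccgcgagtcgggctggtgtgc

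Mxd1, the member with the largest change, had no CACGTG in its window. The CCAAT pentamer, searched on both strands, stood in it 4 times, starting 240, 192, 99 and 58 bases before the start. It occurs at least once in 37.4% of all promoters, and among the members also in Mxd4, Mlx and Mlxip. How many promoters hold 4 copies was not computed. The GC box GGGCGG, searched in the same way, stood 6 times in Mxd1 and 8 times in Mxd3. It occurs at least once in 35.7% of all promoters, and of the members with an entry only Max and Mlx lacked it. The Mxd1 promoter is shown with CCAAT in capitals. A match is a description of letters, not of a bound site.
Mxd1 (chr6:86669110-86669409, minus strand): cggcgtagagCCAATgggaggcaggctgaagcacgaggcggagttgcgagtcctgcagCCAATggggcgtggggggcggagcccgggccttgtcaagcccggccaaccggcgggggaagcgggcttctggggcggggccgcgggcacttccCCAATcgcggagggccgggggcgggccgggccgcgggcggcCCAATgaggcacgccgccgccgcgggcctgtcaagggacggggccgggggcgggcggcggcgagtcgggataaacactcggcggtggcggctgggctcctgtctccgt

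The label of the cells was checked against markers. All 9 B cell markers used, among them Cd79a, Ebf1 and Pax5, had counts, and they summed to 290 to 304 CPM in JQ1 libraries, 320 to 359 CPM in RG6146 libraries and 595 to 680 CPM in DMSO libraries. Of 13 myeloid markers all had counts, summing to 58.3 to 280 CPM in JQ1, 87.3 to 128 CPM in RG6146 and 162 to 766 CPM in DMSO libraries. These markers did not move together. S100a8 had 104, 345 and 48 reads in JQ1, 76, 120 and 181 in RG6146 and 274, 1096 and 801 in DMSO libraries. Csf1r had 135, 143 and 130 reads in JQ1, 153, 89 and 141 in RG6146 and 113, 81 and 83 in DMSO libraries. Adgre1, Ly6g and Cd14 had 0 to 2 reads per library. The 11 T and NK cell markers summed to 2.77 to 5.33, 4.68 to 5.64 and 6.39 to 11.7 CPM in the same order, with Trac and Ncr1 at 0. Most of it was Cd2 (9 to 41 reads). Each other marker had 0 to 2 reads per library, apart from Gzma with 7 in JQ1 replicate 2. The 9 stromal and endothelial markers summed to 98.4 to 101, 104 to 111 and 132 to 143 CPM, nearly all of it Vim (369 to 519 reads), which many cell types express, and Pecam1 (19 to 138 reads), with 0 to 3 reads for each other marker and Dcn at 0. Summed in the same order, the 7 erythroid markers gave 3.53 to 19.2, 3.90 to 8.87 and 5.86 to 9.71 CPM. In bulk RNA fewer cells of a type and less RNA per cell cannot be told apart, and the part of these shifts in the results below was not tested. JQ1 replicate 2 and DMSO replicate 2 had the highest myeloid sum of their groups, so results were also computed without both.

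Levels are given as CPM scaled by TMM. They were not divided by transcript length, since a 3′ tag is read about once per transcript whatever its length. Under DMSO, Max (128 ± 8.98 CPM, SD, n = 3), Mga (125 ± 4.30 CPM) and Myc (113 ± 11.1 CPM) were the highest of the 10, and the ranges of neighbours in this order overlapped. Mxd4 (76.5 ± 5.97 CPM), Mxd3 (52.7 ± 3.09 CPM) and Mxi1 (27.8 ± 1.54 CPM) followed, each range apart from the next. Mlxip (22.8 ± 1.03 CPM) and Mlx (19.2 ± 3.68 CPM) overlapped, and Mnt (14.04 ± 0.870 CPM) and Mxd1 (4.99 ± 1.02 CPM) were lowest. Myc stood above 88.1% of all tested genes under DMSO and Mxd1 above 16.5%. The family members Mycn, Mycl and Mlxipl had 4, 2 and 2 reads in all 9 libraries together, so Myc was the only MYC gene with enough reads to test.

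Myc (ENSMUSG00000022346, protein-coding, chromosome 15, 61985391 to 61990374, plus strand, mm10) was higher after both compounds, not lower. It was at 128, 173 and 154 CPM in the JQ1 libraries and 200, 177 and 207 CPM in the RG6146 libraries, against 125, 113 and 103 CPM in the DMSO libraries. In these TMM-scaled levels all 6 treated libraries lay above all 3 DMSO libraries, and JQ1 replicate 1 lay closest to them. Before scaling, JQ1 replicate 1 had 609 Myc reads of 5031717 gene counts, and DMSO replicate 1 had 666 of 5003725. The order of these 2 libraries thus rests on the TMM scaling. The log2 fold change was 0.42 ± 0.11 (SE) after JQ1, with a 95% interval of 0.19 to 0.64 and adjusted p = 0.00818 in edgeR's quasi-likelihood test over all genes. After RG6146 it was 0.78 ± 0.11, with an interval of 0.55 to 1.01 and adjusted p = 5.91e-05. The call after JQ1 ended with library size scaling (0.29, adjusted p = 0.0592), ERCC spike-in scaling (0.43, 0.276, but 0.0260 with a replicate term added), the test against a 1.2-fold change (0.124) and without JQ1 replicate 2 and DMSO replicate 2 together (0.31, 0.0950), in a range of 1.8e-04 to 0.276 over all alternatives; the call after RG6146 held under each of them (at most 0.00837). Pvt1, a long non-coding RNA gene beside Myc, had 16, 16 and 8 reads in JQ1, 13, 17 and 12 in RG6146 and 29, 16 and 19 in DMSO libraries, with log2 fold changes of -0.65 ± 0.32 and -0.56 ± 0.32 (adjusted p = 0.147 and 0.221).

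**Figure D1:**
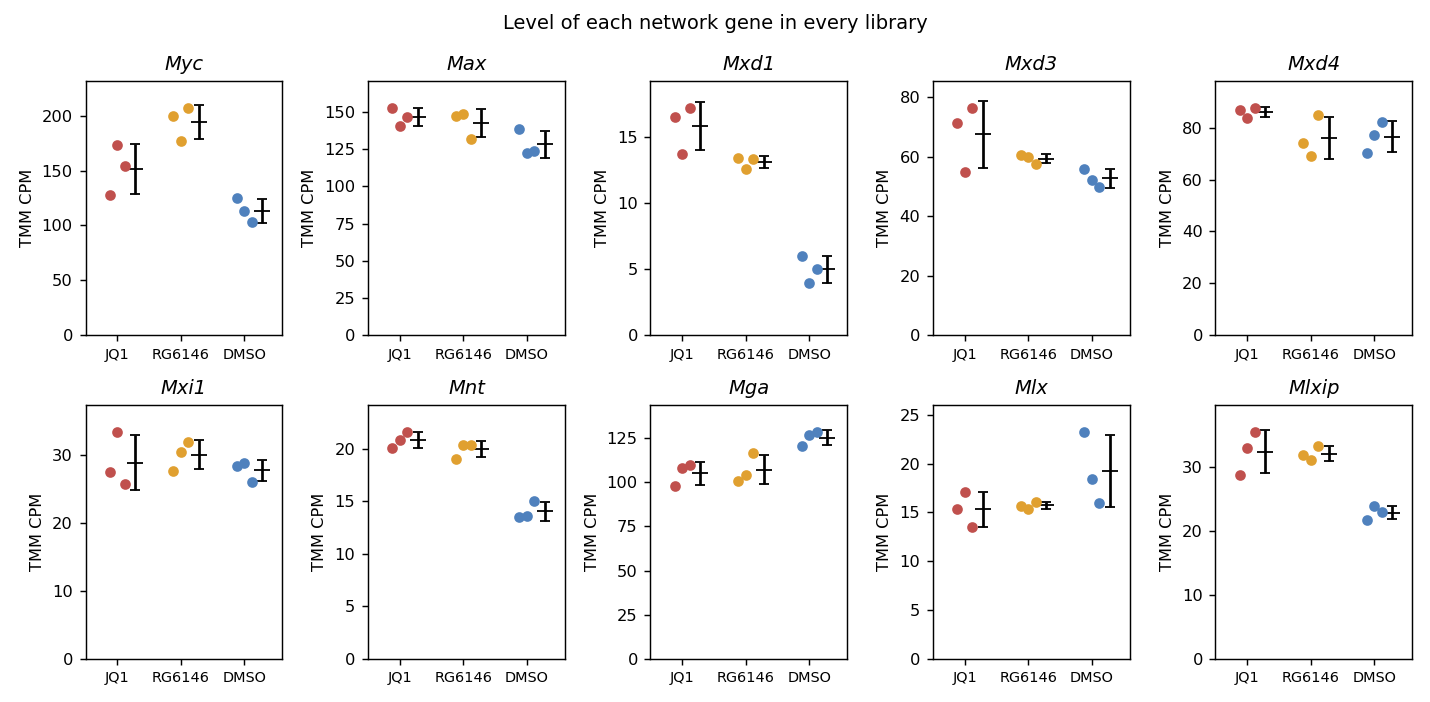
Level of each of the 10 network genes (TMM CPM, vertical axis from 0) in the 3 JQ1, 3 RG6146 and 3 DMSO libraries; points are libraries and black bars mean ± SD. Mxd1, Mnt, Mlxip and Myc lie higher in all treated libraries than in all DMSO libraries, and Mga lies lower.

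Max (ENSMUSG00000059436, chromosome 12, 76937269 to 76962201, minus strand), the shared partner, was at 153, 140 and 147 CPM in JQ1 libraries and 147, 149 and 132 CPM in RG6146 libraries, against 139, 122 and 124 CPM in DMSO libraries. The JQ1 libraries lay just above the DMSO libraries, while the RG6146 and DMSO libraries overlapped. Its log2 fold changes of 0.19 ± 0.08 and 0.15 ± 0.08 did not pass (edgeR adjusted p = 0.0908 and 0.188), although the first passed without DMSO replicate 1 (0.25, 0.0485).

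Among the MXD repressors, Mxd1 (ENSMUSG00000001156, chromosome 6, 86647042 to 86669161, minus strand), also called MAD1 and known from differentiating cells, changed most. It was at 16.6, 13.8 and 17.2 CPM in JQ1 libraries and 13.4, 12.6 and 13.4 CPM in RG6146 libraries, against 5.996, 3.97 and 5.02 CPM in DMSO libraries. All treated libraries lay far above the highest DMSO library. It rose by 1.64 ± 0.19 on the log2 scale after JQ1 (3.12-fold, interval 1.23 to 2.05, edgeR adjusted p = 6.23e-06) and by 1.37 ± 0.20 after RG6146 (2.59-fold, interval 0.95 to 1.79, adjusted p = 5.83e-05). These calls rest on 50 to 79 reads per treated library and 14 to 32 per DMSO library, and held under every alternative computed, with adjusted p at most 6.84e-04.

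Mxd3 (ENSMUSG00000021485, chromosome 13, 55325168 to 55329823, minus strand), an MXD protein tied to cycling cells, was at 71.5, 54.8 and 76.3 CPM in JQ1 libraries and 60.7, 60.0 and 57.5 CPM in RG6146 libraries, against 56.0, 52.1 and 49.9 CPM in DMSO libraries. JQ1 replicate 2 lay within the DMSO range, while all RG6146 libraries lay above it by little. Its log2 fold change was 0.36 ± 0.11 after JQ1 (edgeR adjusted p = 0.0244) and 0.17 ± 0.11 after RG6146 (0.294). The JQ1 call ended without JQ1 replicate 1 (0.0972), JQ1 replicate 3 (0.138), DMSO replicate 2 (0.0648) or DMSO replicate 3 (0.0830), with library size (0.156) or ERCC scaling (0.415, and 0.0662 with a replicate term), in DESeq2 (0.0702) and against a 1.2-fold change (0.264). The 3′ ends of Mxd3 and of Prelid1, on the opposite strand, overlap by 105 bases, and the strand setting of the counts is not given in the sources used here. Prelid1 had log2 fold changes of 0.32 ± 0.09 and 0.17 ± 0.09 (adjusted p = 0.00990 and 0.169), so the source of the Mxd3 reads is uncertain.

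Mxd4 (chromosome 5, 34173883 to 34187720), an MXD protein known from differentiating cells, was at 87.0, 83.7 and 87.5 CPM in JQ1 libraries and 74.1, 69.1 and 84.9 CPM in RG6146 libraries, against 70.3, 77.0 and 82.2 CPM in DMSO libraries. Mxi1 (chromosome 19, 53310518 to 53375810), a relative of the MXD genes first found as a MAX partner, was at 27.5, 33.4 and 25.8 CPM, 27.7, 30.5 and 31.9 CPM, and 28.5, 28.9 and 26.0 CPM in JQ1, RG6146 and DMSO libraries. Neither passed in either comparison. The 95% intervals of their log2 fold changes were -0.03 to 0.37 (Mxd4) and -0.21 to 0.32 (Mxi1) after JQ1, and -0.21 to 0.19 and -0.15 to 0.38 after RG6146. Mxi1 overlaps Gm10197 on the opposite strand, which had 8 to 35 reads per library against 99 to 152 for Mxi1.

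Mnt (ENSMUSG00000000282, chromosome 11, 74830920 to 74845725, plus strand) encodes a broadly expressed MAX partner that represses MYC targets in cycling cells. It was at 20.1, 20.9 and 21.6 CPM in JQ1 libraries and 19.1, 20.4 and 20.4 CPM in RG6146 libraries, against 13.5, 13.6 and 15.0 CPM in DMSO libraries. Treated and DMSO libraries did not overlap, and the spread within each group was small. It rose by 0.57 ± 0.14 after JQ1 (edgeR adjusted p = 0.00447) and by 0.51 ± 0.14 after RG6146 (0.0109). DESeq2 gave the same sizes with adjusted p of 0.0536 and 0.108, ERCC scaling gave 0.205 and 0.248 (0.0119 and 0.0164 with a replicate term added), and the RG6146 call also ended against a 1.2-fold change (0.0831).

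Mga (ENSMUSG00000033943, chromosome 2, 119897228 to 119969581, plus strand), whose very large protein pairs with MAX in the PRC1.6 complex, was the member that fell. It was at 97.7, 108 and 110 CPM in JQ1 libraries and 101, 104 and 116 CPM in RG6146 libraries, against 120, 127 and 128 CPM in DMSO libraries. All treated libraries lay below all DMSO libraries. The log2 fold change was -0.25 ± 0.08 after JQ1 (edgeR adjusted p = 0.0319) and -0.22 ± 0.08 after RG6146 (0.0594), on either side of the threshold. The JQ1 call ended without JQ1 replicate 1 (0.144), DMSO replicate 2 (0.0830) or DMSO replicate 3 (0.0901), without JQ1 and DMSO replicates 2 together (0.0926), with ERCC scaling (0.607, and 0.0556 with a replicate term), in DESeq2 (0.0838), with no filter (0.0968) and against a 1.2-fold change (0.614). RG6146 passed without RG6146 replicate 3 (0.0285), with library size scaling (0.00690) and among genes averaging 10 CPM or more (0.0250).

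In the MLX arm, Mlxip (ENSMUSG00000038342, chromosome 5, 123394798 to 123457932, plus strand) was at 28.7, 33.0 and 35.4 CPM in JQ1 libraries and 31.8, 31.0 and 33.3 CPM in RG6146 libraries, against 21.7, 23.8 and 22.9 CPM in DMSO libraries. All treated libraries lay above all DMSO libraries. It rose by 0.50 ± 0.12 after JQ1 and 0.49 ± 0.12 after RG6146 (edgeR adjusted p = 0.00372 and 0.00491, and 0.220 and 0.216 with ERCC scaling, or 0.0114 and 0.00790 with a replicate term added), and the RG6146 call ended against a 1.2-fold change (0.0626). Its partner Mlx (chromosome 11, 101087277 to 101092207) was at 15.3, 17.1 and 13.5 CPM in JQ1 libraries and 15.7, 15.4 and 16.1 CPM in RG6146 libraries, against 23.2, 18.4 and 16.0 CPM in DMSO libraries. The groups overlapped through DMSO replicate 3, and the log2 fold changes of -0.33 ± 0.16 and -0.30 ± 0.16 did not pass (adjusted p = 0.137 and 0.196), although the first passed with library size scaling (-0.47, 0.0391). Without DMSO replicate 1, the highest library, they were -0.16 and -0.13. The 3′ ends of Mlx and Psmc3ip, on opposite strands, overlap by 385 bases. Psmc3ip had -0.25 ± 0.16 and -0.26 ± 0.17, so reads of the pair may not be separated.

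After JQ1, 5 of the 10 members rose and 1 fell (Myc, Mxd1, Mxd3, Mnt, Mlxip and Mga), against 29.0% of all 11002 tested genes called in either direction, 13.6% higher and 15.4% lower. After RG6146, 4 rose and 0 fell (Myc, Mxd1, Mnt and Mlxip), against 26.0% of all tested genes, 12.5% higher and 13.5% lower. The median log2 fold change of the members was 0.27 after JQ1 and 0.16 after RG6146, beside 0.0046 and 0.0088 for all tested genes. Groups did not overlap for 7 members after JQ1, 6 higher and 1 lower, against 42.6% of all genes (20.6% higher and 22.0% lower). After RG6146 they did not overlap for 6 members, 5 higher and 1 lower, against 40.9% of all genes (20.1% and 20.8%). Both comparisons use the same DMSO libraries. The members were chosen with earlier results of these data known, so these shares and medians are a description and not a test. With library size scaling, which moved the median of all genes by -0.13 after JQ1 and -0.099 after RG6146, the rises and falls were 3 and 2, and 4 and 1, while 916 of all genes were called higher and 2437 lower after JQ1 (1496 and 1692 with TMM), and 883 and 2067 after RG6146 (1375 and 1488). With ERCC scaling 1 member rose after JQ1 (Mxd1) and 2 after RG6146 (Mxd1 and Myc), and with ERCC scaling and a replicate term 4 rose after each compound (Myc, Mxd1, Mnt and Mlxip) and 0 fell.

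**Figure D2:**
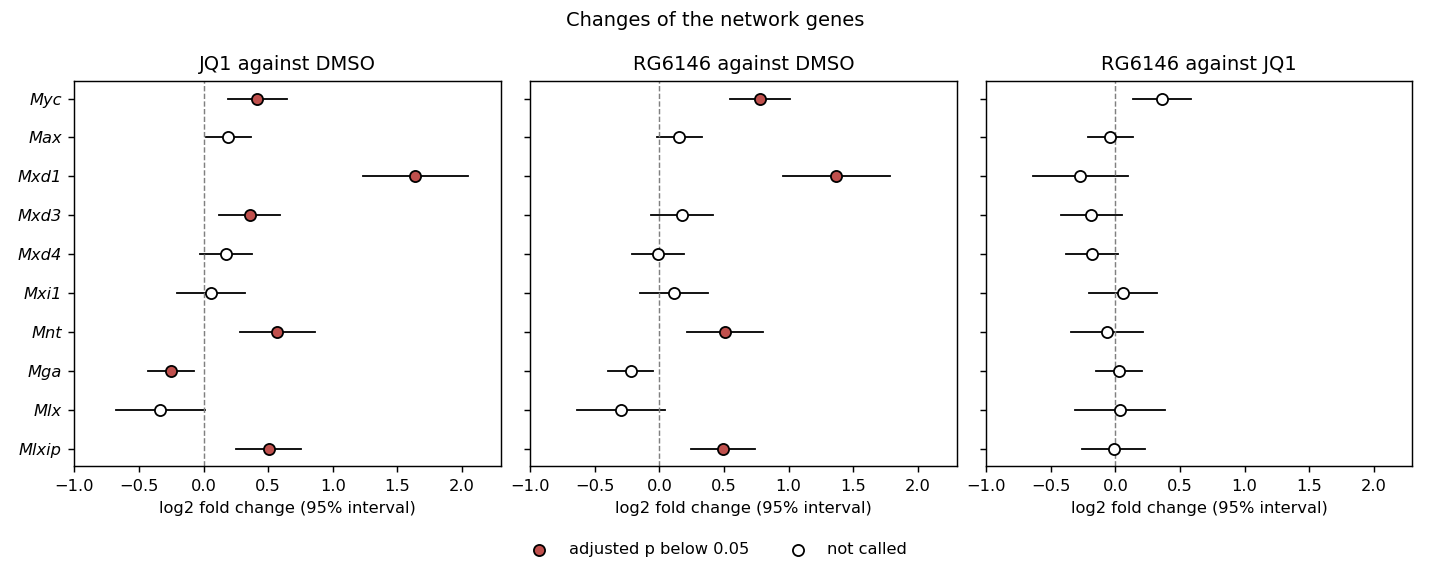
Log2 fold change of each member in 3 comparisons, with 95% intervals; filled points passed at adjusted p below 0.05. Mxd1 stands furthest from 0 in both comparisons with DMSO (1.64 and 1.37), and no member passed for RG6146 against JQ1.

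RG6146 at 2.5 µM and JQ1 at 1 µM were then compared directly; the doses differ, so the test compares the treatments as given. None of the 10 members passed (edgeR quasi-likelihood test, and 0 by DESeq2), with 1 of them at an unadjusted p below 0.05, and 1 of all 11002 genes was called (0.00909%). The member at an unadjusted p below 0.05 was Myc, at 200, 177 and 207 CPM under RG6146 and 128, 173 and 154 CPM under JQ1, with no overlap. Its log2 difference was 0.36 ± 0.11, with an interval of 0.14 to 0.59 (unadjusted p = 0.00381, adjusted p = 0.999). It ranked 16 of 11002 by p, where 425 genes had an unadjusted p below 0.05. Mxd1 was the other member without overlap, at 12.6 to 13.4 CPM under RG6146 and 13.8 to 17.2 CPM under JQ1, with a difference of -0.27 ± 0.17 and an interval of -0.63 to 0.10. Groups did not overlap for 9.93% of all genes, 5.41% in the higher and 4.52% in the lower direction. For Max, Mnt, Mga and Mlxip the intervals were -0.21 to 0.13, -0.34 to 0.22, -0.15 to 0.21 and -0.26 to 0.23. A p that misses the threshold does not show that the compounds act alike on these genes.

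Ratios between members within a library need no scaling. The summed reads of the repressors Mxd1, Mxd3, Mxd4, Mxi1 and Mnt over those of Myc came to 1.74, 1.19 and 1.49 in JQ1 libraries and 0.975, 1.09 and 1.01 in RG6146 libraries, against 1.40, 1.56 and 1.73 in DMSO libraries. All RG6146 libraries lay below all others, and the JQ1 and DMSO libraries overlapped. The ratio holds the Myc reads, and Myc itself did not pass for RG6146 against JQ1 (edgeR adjusted p = 0.999). Mxd3 gave 341 of the 1062 summed reads in JQ1 replicate 1 and 184 of 620 in DMSO replicate 2. Its reads may include some of Prelid1, in this sum and in the Mxd1 share below. Myc over Max was 0.837, 1.23 and 1.05 in JQ1 libraries and 1.36, 1.19 and 1.56 in RG6146 libraries, against 0.900, 0.921 and 0.829 in DMSO libraries. JQ1 replicate 1 lay within the DMSO range of this ratio, and all RG6146 libraries lay above that range. Mxd1 over Myc was 0.130, 0.0796 and 0.112 in JQ1 libraries and 0.0670, 0.0712 and 0.0646 in RG6146 libraries, against 0.0480, 0.0352 and 0.0488 in DMSO libraries, so Mxd1 was higher relative to Myc in all treated libraries than in all DMSO libraries. Mxd1 made up 7.21 ± 0.477% of the summed repressor reads under JQ1 and 6.61 ± 0.236% under RG6146, against 2.84 ± 0.592% under DMSO (SD, n = 3 each), and remained the rarest of the 5. These ratios are described without a test, since the members were chosen with results known.

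**Figure D3:**
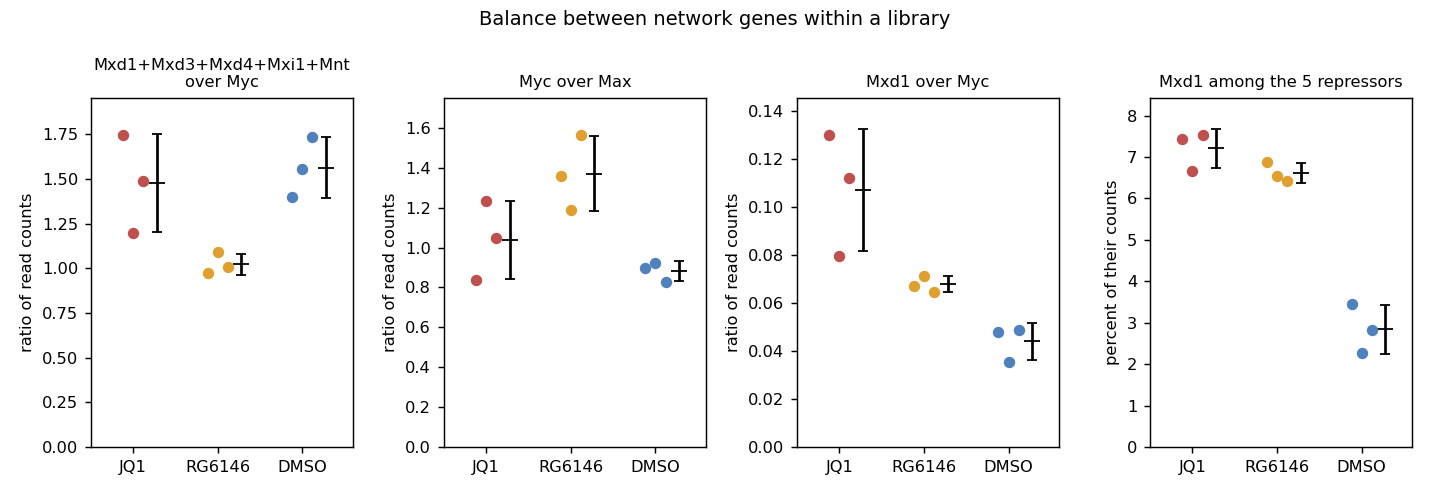
Ratios of read counts between members in each library (first 3 panels) and the percentage of the 5 repressors' reads that are Mxd1 (last panel), for JQ1, RG6146 and DMSO; points are libraries, black bars mean ± SD, axes start at 0. The repressor sum over Myc is near 1.02 under RG6146, 1.48 under JQ1 and 1.56 under DMSO.

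The wider MYC pathway was described from lists of known partners and targets, also chosen with earlier results known, so their counts are no test. SIN3, the corepressor that MXD proteins and MNT recruit, had 8 of 19 tested genes higher and 0 lower after JQ1. After RG6146, 7 were higher and 0 lower, and the medians were 0.25 and 0.19. Of all genes, 13.6% were higher and 15.4% lower after JQ1, and 12.5% and 13.5% after RG6146. Ing1, a histone reader of the complex, was at 248, 219 and 253 CPM in JQ1 and 251, 216 and 212 CPM in RG6146 libraries, against 125, 124 and 121 CPM in DMSO libraries, with log2 fold changes of 0.96 ± 0.08 and 0.87 ± 0.08. Ing2, a second reader, rose by 0.66 and 0.52, the subunit gene Arid4b by 0.50 and 0.49, and the deacetylase gene Hdac1 by 0.47 and 0.39 (highest adjusted p of these, 0.00301 in edgeR). With library size scaling 6 and 4 of the 19 were higher, with ERCC scaling 1 and 1, and with ERCC scaling and a replicate term 6 and 5.

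Of 12 MYC cofactors, 3 rose and 3 fell after JQ1 (13.6% and 15.4% of all genes), and 3 rose and 2 fell after RG6146 (12.5% and 13.5%). Trrap, the scaffold through which MYC recruits acetyltransferases, rose by 0.65 ± 0.12 and 0.68 ± 0.12, and the remodeller gene Ep400 by 0.42 and 0.54. Kat5, the acetyltransferase of the same TIP60 complex, fell by 0.73 and 0.70 on the log2 scale, and Bptf, a remodeller subunit, fell by 0.25 and 0.29. The highest adjusted p of these 4 was 0.0228.

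Around MGA, 1 of 9 tested genes of the PRC1.6 complex rose and 2 fell after each compound, near the shares of all genes (13.6% and 15.4% after JQ1, 12.5% and 13.5% after RG6146). E2f6, which with MGA targets the complex to DNA, fell to 8.18, 6.88 and 5.99 CPM in JQ1 libraries and 7.72, 7.56 and 9.06 CPM in RG6146 libraries, against 20.4, 17.3 and 14.6 CPM in DMSO libraries. Its log2 fold changes were -1.31 ± 0.19 and -1.11 ± 0.19 (edgeR adjusted p = 6.53e-05 and 3.17e-04). L3mbtl2 had -0.56 ± 0.14 and -0.38 ± 0.13 (0.00473 and 0.0454), and Cbx3 -0.08 ± 0.06 and -0.13 ± 0.06 (0.402 and 0.140). Rybp, a subunit that PRC1.6 shares with other Polycomb complexes, rose by 1.48 ± 0.10 and 1.41 ± 0.10.

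Among 18 genes that control MYC protein turnover, 6 rose and 1 fell after JQ1 (13.6% and 15.4% of all genes), and 7 rose and 2 fell after RG6146 (12.5% and 13.5%). Pim2, a kinase that stabilises MYC, was at 25.8, 24.7 and 20.6 CPM in JQ1 libraries and 20.9, 19.2 and 23.3 CPM in RG6146 libraries, against 6.37, 6.23 and 7.88 CPM in DMSO libraries, a change of 1.80 ± 0.17 and 1.63 ± 0.17. Gsk3b, the kinase that marks MYC for degradation, rose by 0.75 and 0.62, and Stub1, a ubiquitin ligase, by 0.74 and 0.71. Skp2, a ubiquitin ligase subunit that acts on MYC, fell by 0.79 and 0.64 on the log2 scale. The highest adjusted p of these 4 was 5.19e-04.

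Of 45 tested genes that MYC is known to activate, 7 rose and 12 fell after JQ1, and 6 rose and 10 fell after RG6146, with medians of 0.09 and 0.03. Over all tested genes 13.6% rose and 15.4% fell after JQ1, and 12.5% and 13.5% after RG6146. Slc19a1, the folate carrier, fell to 28.9, 29.9 and 31.3 CPM in JQ1 libraries and 32.0, 37.8 and 38.7 CPM in RG6146 libraries, against 60.7, 63.2 and 56.4 CPM in DMSO libraries. The ribosome biogenesis genes Ppan (-0.69 and -0.75) and Gnl3 (-0.50 and -0.42) also fell, while Eif4a1, the helicase of translation initiation, rose by 0.61 and 0.53. With library size scaling 4 rose and 16 fell after JQ1 and 3 and 16 after RG6146; with ERCC scaling 0 rose and 3 and 2 fell, and with a replicate term added 4 rose and 10 fell, and 4 and 8.

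Of 8 genes that MYC is known to repress, 3 could be tested. Cdkn1b, the cell cycle inhibitor p27, rose by 0.43 ± 0.12 and 0.37 ± 0.12 (edgeR adjusted p = 0.00944 and 0.0258). Gadd45a, a stress gene with few reads, had 1.67 ± 0.45 and 1.28 ± 0.47 (0.00929 and 0.0526). Cdkn1a, also with few reads (0.906 to 5.02 CPM), had -0.81 ± 0.43 and -1.03 ± 0.44 (0.175 and 0.0971). Of the MLXIP targets, Txnip, an inhibitor of glucose uptake, was at 108, 101 and 116 CPM in JQ1 libraries and 115, 89.7 and 130 CPM in RG6146 libraries, against 45.9, 53.8 and 64.0 CPM in DMSO libraries. It rose by 0.99 ± 0.15 and 1.03 ± 0.15 (4.03e-04 and 3.25e-04). Klf10 had -1.18 ± 0.42 and -0.46 ± 0.39 (0.0443 and 0.422). It had few reads, at 1.05 to 1.56 CPM in JQ1, 1.81 to 2.50 CPM in RG6146 and 2.44 to 3.82 CPM in DMSO libraries. Arrdc4 had too few reads to test.

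**Figure D4:**
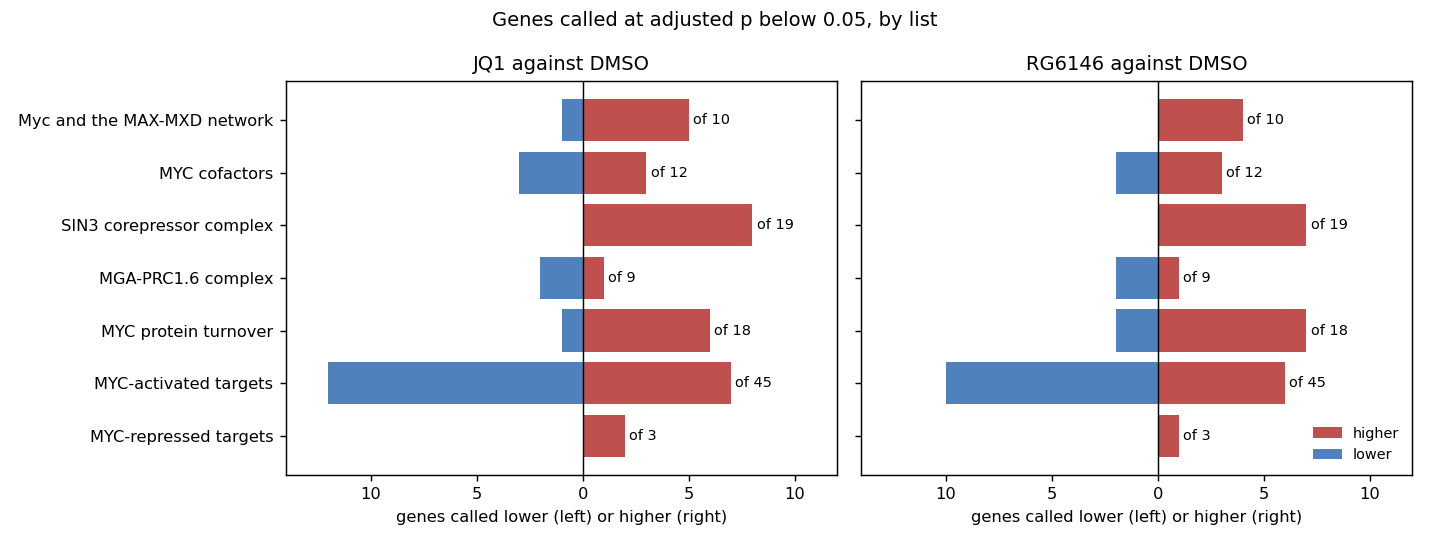
Number of genes called higher (right, red) and lower (left, blue) at adjusted p below 0.05 in lists with at least 3 tested genes, after JQ1 and after RG6146 against DMSO; the number of tested genes stands beside each bar. The SIN3 list has rises only (8 and 7 of 19), and MYC-activated targets have more falls (12 and 10) than rises (7 and 6) of 45.

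The genes whose profile over the 9 libraries was most like that of Myc were sought among the 7406 genes that averaged 10 CPM or more, by the root mean square difference of log2 CPM centred on the DMSO mean. They were Bcl10 (0.13), an adaptor of antigen receptor signalling, Hdgfl2 (0.14), Zfp664 (0.14), Cldnd1 (0.14) and Slc7a6os (0.14), where the median gene was at 0.53. Those most like Mxd1 were the deacetylase gene Sirt1 (0.15), the P-TEFb inhibitor gene Hexim1 (0.15), Rybp (0.16), the autophagy kinase gene Ulk1 (0.16) and Carhsp1 (0.18), where the median gene was at 1.19. The log2 fold changes of Bcl10 were 0.40 after JQ1 and 0.63 after RG6146, and those of Hexim1 1.55 and 1.46.

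**Figure D5:**
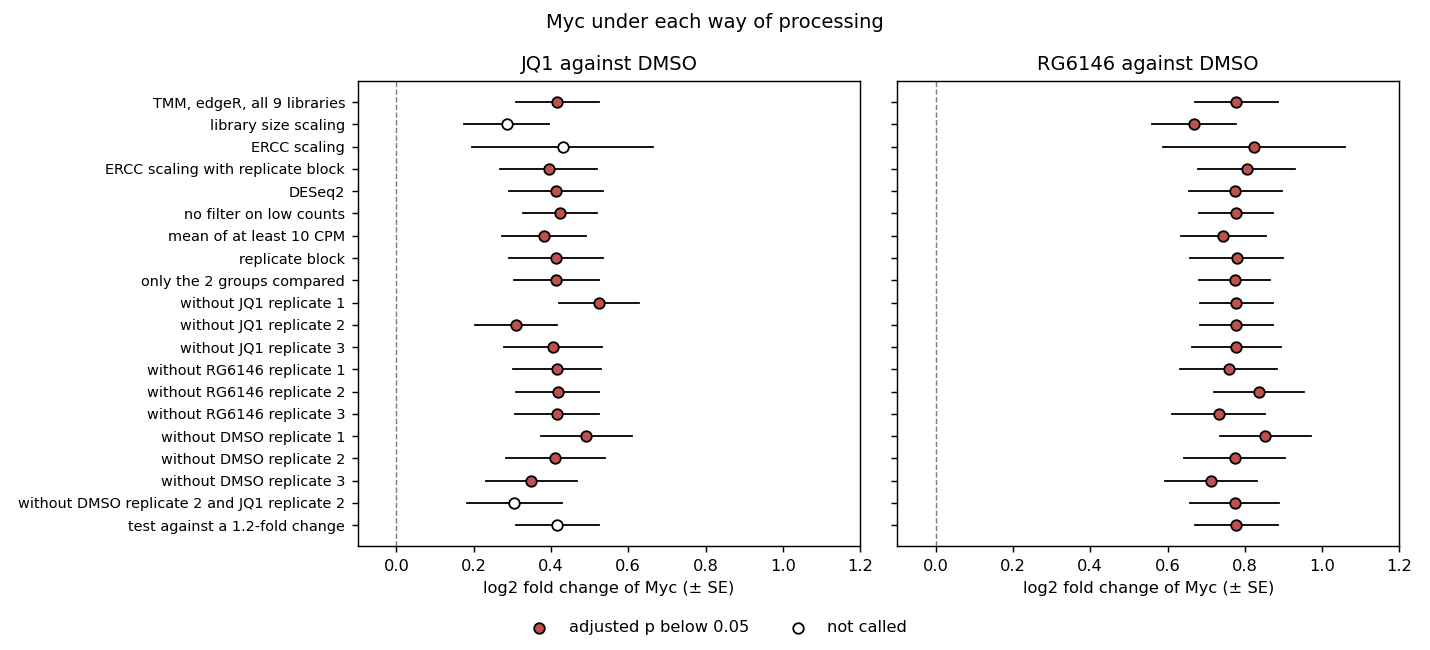
Log2 fold change of Myc (± SE) after JQ1 and after RG6146 against DMSO under each way of processing, from the fit reported (top) downwards; filled points passed at adjusted p below 0.05. Every value lies above 0; after JQ1 4 settings did not pass, and after RG6146 all passed.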

How the data were processed

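The authors deposited read counts per gene for 9 libraries, with no normalisation. Per the labels' protocols, QuantSeq 3′ mRNA libraries gave single-end reads on an Illumina NextSeq. Per the submitters' processing notes, the tools were HISAT2 2.1.0, cutadapt 1.7, Subread with featureCounts, FastQC 0.11.5, limma and bcl2fastq 2.17.1.14, with the build mm10. No annotation release or strand setting is named in the sources used here. Symbols came from GENCODE M21, for 42548 of 43629 genes. The analysis used edgeR 4.0.16 in R 4.3.3: filterByExpr with a minimum count of 10, TMM, a robust quasi-likelihood fit with the group as its only term over all 9 libraries, and Benjamini-Hochberg adjustment over 11002 genes, called below 0.05. The 92 ERCC sequences stayed out of library sizes and tests. Log2 fold changes carry no prior count, and their 95% intervals come from the same fit. Marker sums are CPM of total gene counts without TMM; 1 B cell marker of the list is not reported here and stayed out of its sum. Alternatives were other scalings, filters, DESeq2 1.42.0, a replicate term, a test against a 1.2-fold change and left-out libraries. The fit was tested on simulated data. Replicate pairs differed by more than sampling noise (chi-square per degree of freedom 6.64 to 16.5). Named were all members, up to 4 genes of each list with the smallest p (short lists whole), and the 5 genes most like Myc and Mxd1. The members and lists were chosen with earlier results of these data known. The labels do not say that a replicate number marks a shared day. In TMM-scaled log2 CPM, same-numbered libraries did not deviate together (r of -0.063 to 0.10). That check leaves out the ERCC reads, so it does not cover a difference in ERCC content between replicates. Relative to gene counts, ERCC reads were highest in replicate 1 and lowest in replicate 3 of every group. With ERCC scaling, adding a replicate term moved the genes called from 1196 to 2829 after JQ1 and from 1082 to 2604 after RG6146.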

Additional observations from a re-analysis of the deposited data

How the results depend on the processing

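Over 19 alternatives to each comparison, 514 of 570 values of single members kept their direction and their side of the threshold. Another 30 lost a call, 5 gained one and 21 changed sign, none of these called. Members not called in the reported fit had no call to lose, among them all 10 for RG6146 against JQ1. After JQ1, Mxd3 kept its call in 5 of 9 fits without 1 library and in 5 of 10 other alternatives. Mga kept its call after JQ1 in 6 of 9 and 4 of 10. The number of members called was 6 after JQ1, and 1 with ERCC scaling, 3 with DESeq2 and 3 when tested against a 1.2-fold change; after RG6146 it was 4, and 2 with ERCC scaling and 2 against a 1.2-fold change. Without 1 library it ranged over 4 to 7, 4 to 5 and, for RG6146 against JQ1, stayed at 0. All genes called were 3188 after JQ1 (1196 with ERCC scaling, 1801 against a 1.2-fold change) and 2863 after RG6146 (1082, 1548, and 1902 with DESeq2), and with ERCC scaling and the block 2829 and 2604, with 4 members called in each. For RG6146 against JQ1, 1 gene was called, 4 with ERCC scaling, 17 with no filter, and 0 with a mean of at least 10 CPM, with only the 2 groups, against a 1.2-fold change and without JQ1 replicate 2 and DMSO replicate 2; without 1 library it ranged over 0 to 2. With the replicate block the members called were 6, 4 and 0 and all genes called 3093, 2790 and 0. In TMM-scaled levels, which leave out the ERCC reads, same-numbered libraries did not deviate together. The best match was at the library's own number in 8 of 18 checks. Each check had 3 candidates, and the checks are not independent. Mxi1 after JQ1 turned to -0.076 with library size scaling and -0.03 without JQ1 replicate 2 and DMSO replicate 2, and ranged over -0.061 to 0.13 without 1 library. Mxd4 after RG6146 was at 0.020 with ERCC scaling and 0.017 with the block added, and over -0.095 to 0.052 without 1 library. For RG6146 against JQ1, Mlxip was at 0.011 with library size scaling, 0.016 with ERCC scaling, 0.035 with ERCC scaling and the block and 0.0027 without the 2 libraries, and over -0.093 to 0.057 without 1 library; Max was at 0.0055 with ERCC scaling and the block and over -0.075 to 0.014; Mga, Mxi1 and Mlx ranged over -0.035 to 0.070, -0.017 to 0.17 and -0.041 to 0.12. The cause of these shifts was not tested. Depth limits Mxd1 most, at 14 reads in its lowest library.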

Other observations

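Mlxip over Mlx, the ratio of reads of the 2 partners in the glucose-responsive arm, was 1.88, 1.93 and 2.62 in JQ1 libraries and 2.03, 2.02 and 2.07 in RG6146 libraries, against 0.935, 1.29 and 1.43 in DMSO libraries. The treated and DMSO libraries did not overlap, and the reads of Mlx may include some of Psmc3ip. Mxd1 over Max was 0.109, 0.0980 and 0.117 in JQ1 libraries and 0.0910, 0.0846 and 0.101 in RG6146 libraries, against 0.0432, 0.0324 and 0.0405 in DMSO libraries. Mnt over Myc was 0.140 ± 0.0185 under JQ1 and 0.103 ± 0.0107 under RG6146, against 0.125 ± 0.0196 under DMSO (SD, n = 3 each), and each treated group overlapped the DMSO libraries. These values carry no test.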
